A study of Mus musculus with 18 samples.

Results

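The comparison described here set abdominal aortas with an elastase-induced aneurysm, taken from mice given lenvatinib, against normal abdominal aortas. Its members were chosen by the group that the sample labels give, and they were 12 of the 18 arrays of the series, 7 from treated aneurysms (PPE + Lenva systemic) and 5 from normal aorta. The remaining 6 arrays came from aneurysms without the drug (PPE) and entered only where stated. Each array measured the RNA of a piece of infrarenal aorta from 1 male mouse, and arrays are numbered below by their replicate. In the PPE model, porcine pancreatic elastase is infused into the infrarenal aorta and breaks down its elastic fibres, after which the segment widens over weeks. The labels gave ApoE–/– males aged 10 weeks for this operation, and lenvatinib at 5 mg/kg in DMSO by oral gavage each day from day 7 to day 24, with tissue taken on day 28. The study's methods name wild-type mice for the same operation, so the strain is not settled here, and the labels give no genotype for the normal mice on their own. Apoe averaged 11.57 in normal aorta, 12.36 in PPE and 12.34 in PPE + Lenva systemic, and which part of the gene these probes read is not known here. The normal aortas were untreated, so anaesthesia, surgery, elastase, gavage, vehicle and drug differ together between the groups and cannot be told apart here. The arrays of operated mice without the drug share the operation and elastase with the treated group. They are given beside part of the results, and a difference shown without them is not thereby particular to the treated group. The study's methods describe a sham gavage only for another mouse model. Drug, gavage, vehicle and repeated anaesthesia may therefore differ together in that comparison as well.

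Lenvatinib is an oral inhibitor of several receptor tyrosine kinases, among them the receptors for VEGF and FGF, PDGF receptor alpha, KIT and RET. Through these receptors, growth factors drive the division and survival of endothelial cells, fibroblasts and mast cells. The wall of a healthy aorta consists mainly of contractile smooth muscle cells between elastic sheets, lined by endothelium and covered by adventitia with fibroblasts, nerves and fat. In an aneurysm the elastic sheets break, the muscle cells lose contractile proteins, and monocytes enter the wall, where macrophages release proteases, chemokines and osteopontin. In RNA from whole tissue, a change in the number of cells of a type and a change in RNA per cell cannot be told apart.

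The values are log2 signals, so that a difference of 1 is a doubling, and a transcript cluster is the set of probes read as 1 transcript. For 2542 of 36232 genes (7.02%) the signal differed between treated aneurysm and normal aorta at an adjusted p under 0.05 (moderated test of limma across all 65956 clusters, Benjamini-Hochberg), and only such genes are said below to have risen or fallen. Of these, 1536 were higher (4.24%) and 1006 were lower (2.78%) in treated aneurysms, and the median difference over all genes was -0.01. The counts of list members below are to be read beside these shares. Over clusters the figures were 4021 called (6.1%), 1825 higher (2.77%) and 2196 lower (3.33%). The direction went with the kind of transcript, since 1397 of the coding or complex clusters called were higher and 881 lower, against 225 higher and 1226 lower among noncoding clusters. Untreated aneurysm against the same 5 normal aortas gave 1547 genes (4.27%), 778 higher (2.15%) and 769 lower (2.12%).

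The arrays of a group correlated at 0.955 to 0.991 over the clusters with array values. The 5 normal arrays were spread along the axis of greatest variation, at -91.2, -76.5, -62.2, -44.8 and -32.5, and arrays 4 and 5 lay nearest to the aneurysm arrays. In those arrays Spp1, the gene for osteopontin, read 13.24 and 12.87 against 5.55 to 8.15, and Myh11, the smooth muscle myosin heavy chain, read 15.51 and 15.26 against 17.19 to 17.48. Both shifts run toward the aneurysm arrays, and the counts that these arrays move most are also given without them. Without both arrays 1359 clusters were higher and 2082 lower. Leaving out single arrays moved the count of higher clusters further, to 748 and 685 without normal arrays 2 and 3 and to 1016, 1115 and 1008 without treated arrays 1, 4 and 6. The count of lower clusters fell to 1394 without normal array 3. Unless an exception is stated, each gene named below as risen or fallen kept its call with any 1 of the 12 arrays left out. Many genes were named for a large difference or a small p in these same arrays. Where their groups do not overlap, that describes the values and is not further support. The share of all clusters without overlap is not given here.

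The labelled tissue was borne out by its markers. Acta2, smooth muscle actin, and Dcn, the matrix proteoglycan decorin, were at the highest value of the scale, 19.93, in all 3 group averages, so that no difference could be measured for them. Markers of mesothelium (Msln, Upk3b), skeletal muscle (Acta1, Ckm) and kidney and adrenal (Umod, Slc34a1, Star, Cyp11b1) had group averages of 3.54 to 5.16 in every group, at the dim end of the scale, and none was called. Pancreatic enzymes varied strongly between arrays, which is described at the end.

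All 29 measured members of the monocyte and macrophage list rose (median difference 3.01), against 4.24% of all genes. In untreated aneurysm 21 rose (median 2.65). Here and below, unlike counts in the 2 comparisons are not a test of treated against untreated aneurysm. The count was 28 without normal arrays 4 and 5, and 21 to 29 with 1 array left out. Spp1, a secreted phosphoprotein made by macrophages in injured arteries, is on other lists and had the largest rise of all named genes. It read 8.15, 5.66, 5.55, 13.24 and 12.87 in the normal aortas and 14.28 to 16.77 (median 15.43) in the treated aneurysms. All 7 treated arrays lay above the highest normal array. The log2 difference was 6.25 ± 1.27 (SE), a 76.4-fold higher signal (adjusted p = 0.00831 by limma), and 8.90 without normal arrays 4 and 5. Untreated aneurysms read 10.73 to 16.57. The Spp1 cluster lies at chr5:104435111-104441053 on the plus strand in the mm10 build.

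Ctss encodes cathepsin S, a protease of antigen-presenting cells that can cut elastin. Its signal was 11.02, 8.4, 7.57, 12.6 and 14.29 in normal aorta and 14.06 to 17.24 (median 16.4) in treated aneurysm. Only treated array 3, at 14.06, fell below the highest normal array, and the difference was 5.35 ± 0.95 (SE, adjusted p = 0.00369 by limma). Untreated aneurysms read 14.38 to 17.13. Lilrb4a, an inhibitory receptor of myeloid cells, read 10.8, 8.68, 7.79, 11.57 and 12.23 in normal aorta and 14.25 to 17.08 (median 15.24) in treated aneurysm. These groups did not overlap, and the difference was 5.25 (adjusted p = 0.00136). The receptor for the complement fragment C3a, C3ar1, was likewise separated, at 6.03 to 9.81 in normal aorta and 10.9 to 14.44 in treated aneurysm (difference 4.51, adjusted p = 0.00543).

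General markers of white blood cells and macrophages moved with them. Ptprc, the pan-leukocyte phosphatase CD45, rose by 3.96. Tyrobp, the signalling adaptor of many myeloid receptors, rose by 3.52, and Cd68, a lysosomal glycoprotein of macrophages, rose by 3.45. The smallest spread belonged to Cd14, part of the receptor for bacterial lipopolysaccharide. It read 5.69, 5.34, 5.42, 5.95 and 6.09 in normal aorta and 6.83 to 8.09 (median 7.25) in treated aneurysm, with every treated array above every normal array (difference 1.73, adjusted p = 0.00067). For each of these 8 genes, Spp1 included, normal arrays 4 and 5 were the highest of the normal group.

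Macrophages that reside in the healthy adventitia carry other receptors, and this list moved in both directions. Of 14 measured members 1 was higher and 3 were lower (median -0.14), and in untreated aneurysm 2 were higher and 2 lower. Mrc1 was the member that rose (difference 1.32), and whether its call held without single arrays is not given here. Cd163, the scavenger receptor for haemoglobin, read 6.6, 6.98, 7.22, 7.09 and 6.06 in normal aorta and 5.26 to 6.02 (median 5.56) in treated aneurysm. All treated arrays lay below the lowest normal array (difference -1.22, adjusted p = 0.00196). Timd4, a receptor for dying cells, fell by 0.89 (adjusted p = 0.00147). Lyve1, a hyaluronan receptor of these macrophages and of lymphatic vessels, differed by -0.08 and was not called. The count for this list was 2 and 7 without normal arrays 3 and 5, and 6 without arrays 4 and 5 together. Of 17 measured genes of lipid-laden macrophages, 6 rose, among them Lipa, the lysosomal acid lipase (difference 1.50).

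**Figure D1:**
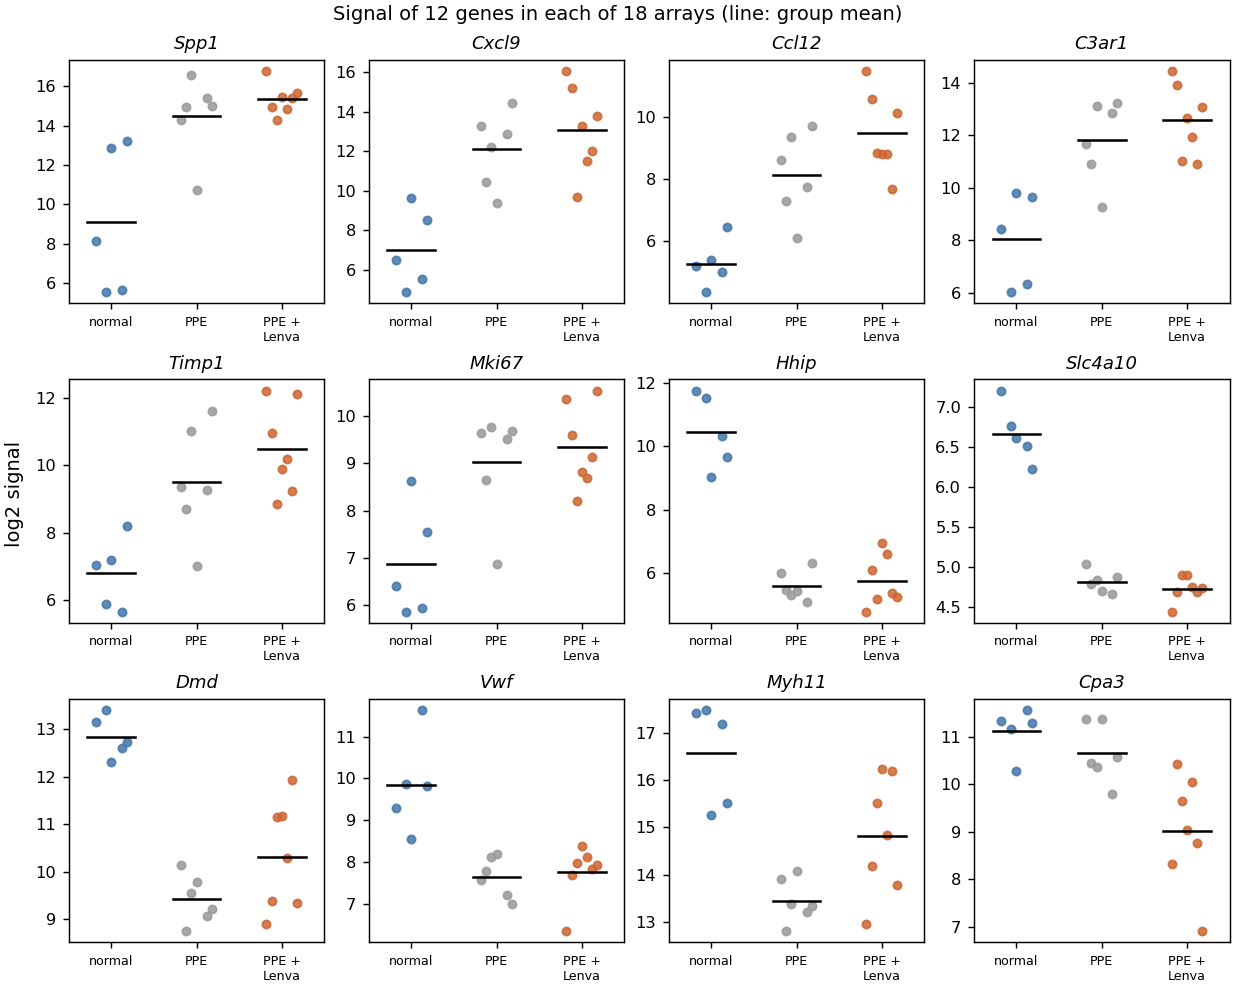
Log2 signal (vertical axis, a separate scale in each panel) of 12 genes in each of the 18 arrays, with normal aorta in blue, PPE in grey and PPE + Lenva systemic in orange; each point is 1 array and each line a group mean. Spp1, Ccl12, C3ar1, Timp1, Hhip, Slc4a10, Dmd and Vwf separate the 7 treated arrays from the 5 normal arrays without overlap, while Myh11 overlaps.

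Of 29 measured chemokines and cytokines, 19 rose and none fell (median 1.53), against 9 higher in untreated aneurysm (median 1.10). The count was 12 without normal array 2 and 15 without normal arrays 4 and 5. Cxcl9, an interferon-induced chemokine that draws T cells, read 6.49, 5.55, 4.89, 8.55 and 9.63 in normal aorta and 9.69 to 16.04 (median 13.27) in treated aneurysm. The nearest arrays lay at 9.63 and 9.69 and the groups did not overlap, and the difference was 6.05 ± 1.12 (SE), or 66.2-fold (adjusted p = 0.00475 by limma). The B cell chemokine Cxcl13 rose by 4.25 (adjusted p = 0.0081).

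A family of monocyte chemokines encoded side by side on chromosome 11 rose together. Ccl2 encodes the main ligand of CCR2, the receptor through which monocytes leave the marrow and enter tissue, and Ccl12 and Ccl7 encode close relatives. Ccl12 read 5.2, 5.01, 4.37, 6.47 and 5.39 in normal aorta and 7.69 to 11.47 (median 8.85) in treated aneurysm. No array overlapped, with a difference of 4.18 (adjusted p = 0.0015 by limma, exact permutation p = 0.00126, two-sided, the smallest that 792 splits of 7 and 5 arrays can give). Ccl2 read 5.74, 5.66, 5.51, 6.63 and 6.88 in normal aorta and 7.67 to 11.15 (median 8.9) in treated aneurysm. This gene was also fully separated (difference 2.76, adjusted p = 0.00721 by limma, exact permutation p = 0.00253). In untreated aneurysm Ccl2 was not called against normal aorta (difference 1.38, adjusted p = 0.18). Treated minus untreated aneurysm came to 1.37 (95% interval 0.28 to 2.47, unadjusted p = 0.0166), which did not pass the adjustment over all clusters.

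Among genes of antigen presentation and complement, members rose and none fell. Of 9 measured MHC class II genes 6 rose (median 1.48), of 10 class I and immunoproteasome genes 6 rose (median 0.99), and of 16 complement genes 10 rose (median 1.51). Untreated aneurysm had 6, 1 and 9 of these higher than normal aorta (medians 1.59, 0.87 and 1.50). H2-Ab1, a chain of the class II molecule, read 9.43 to 13.55 in normal aorta and 13.97 to 16.99 (median 15.69) in treated aneurysm, and H2-K1, a class I heavy chain, 9.59 to 11.6 and 11.75 to 13.89 (median 13.12). Neither overlapped, with differences of 3.42 and 2.06. C1qb, a subunit of the first complement component made by macrophages, read 10.82 to 14.56 in normal aorta and 14.75 to 16.94 (median 16.22) in treated aneurysm, and rose by 3.10 (adjusted p = 0.0104). The class I count was 1 when any of normal arrays 1, 2 or 3 or treated arrays 1, 4 or 6 was left out, the class II count was 3 without normal array 2, and the complement count was 5 without normal array 2 or 3 or treated array 1 or 6 and 6 without treated array 7.

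Interferon-induced genes are switched on through the factor ISGF3 or IRFs, which bind a repeated GAAA element upstream of them. Of 24 measured members 15 rose and none fell (median 1.91), while only 1 was called in untreated aneurysm, where the median difference was 1.60. The count was 3, 2 and 1 without normal arrays 1, 2 and 3, and 4, 5 and 4 without treated arrays 1, 4 and 6. Without normal arrays 4 and 5 it was 13. Oas1a, a sensor of double-stranded RNA, read 5.7, 5.57, 5.76, 7.19 and 6.49 in normal aorta and 7.26 to 10.59 (median 9.28) in treated aneurysm. All treated arrays were above the normal ones (difference 2.86, adjusted p = 0.0133). Ifit1, which binds foreign RNA, rose by 3.47 (adjusted p = 0.0246) and lost its call without normal arrays 1, 2 or 3 or treated arrays 1 or 6 (highest adjusted p 0.0755). Isg15, a ubiquitin-like member of the same list, differed by 0.18 and was not called.

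The promoters of 4 interferon genes that rose are shown because they carry the element GAAANN followed by a further GAAA, where N is any base, within 250 bases upstream of the RefSeq start. The sequences are from RefSeq in the GRCm38.p6 build, each 5′ to 3′ on the strand of its gene, with the element in capitals (read on either strand).
Ifit1 (chr19:34640744-34640873, plus strand): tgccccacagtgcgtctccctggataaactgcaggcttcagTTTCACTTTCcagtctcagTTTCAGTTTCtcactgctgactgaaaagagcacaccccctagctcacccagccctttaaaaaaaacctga
Oas1a (chr5:120907526-120907599, minus strand): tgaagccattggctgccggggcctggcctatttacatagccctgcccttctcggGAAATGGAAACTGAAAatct
Gbp2 (chr3:142620544-142620662, plus strand): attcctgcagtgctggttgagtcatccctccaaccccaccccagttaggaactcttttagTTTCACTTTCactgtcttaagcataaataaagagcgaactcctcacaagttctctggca
Irgm1 (chr11:48871421-48871504, minus strand): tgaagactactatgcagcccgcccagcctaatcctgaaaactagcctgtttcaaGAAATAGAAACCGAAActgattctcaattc

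Searched on both strands of the 250 upstream bases, the element was found in 936 of 27025 symbols with a promoter sequence (3.46%). It was found in 11 of the 18 interferon genes that had a sequence, in 8 of the 12 that were called higher and in 3 of the 6 that were not. The stretches of Oas1a and Irgm1 hold overlapping copies, and Ifit1 holds 2 separate ones. In the arrays Gbp2, an interferon-induced GTPase, rose by 2.79 (adjusted p = 0.0153, and 0.0526 without normal array 3). Irgm1, a GTPase of the same defence system, rose by 1.71 (adjusted p = 0.031) and lost its call when any of normal arrays 1, 2 or 3 or treated arrays 1, 4, 5 or 6 was left out (highest adjusted p 0.0856). A match of letters is a description and not evidence of binding.

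T cell genes were dim but rose in number, 12 of 16 measured (median 0.77) against 5 in untreated aneurysm (median 0.71). None of the 16 was called between treated and untreated aneurysm. Il7r, the receptor for the survival cytokine IL-7, read 4.29 to 7.74 in normal aorta and 7.4 to 10.48 (median 9.59) in treated aneurysm. Treated array 3, at 7.4, was the only array to overlap (difference 3.10, adjusted p = 0.00505). The co-receptor Cd4 rose by 1.18 (adjusted p = 0.019, and 0.0598 without normal array 2). Cd3e, a signalling chain of the T cell receptor, differed by 1.29 (adjusted p = 0.0983) and Cd8a, the co-receptor of cytotoxic cells, by 0.58 (adjusted p = 0.188). The T cell count was 9 without normal arrays 4 and 5, 4, 2 and 2 without normal arrays 1, 2 and 3, and 5, 3 and 3 without treated arrays 1, 4 and 6. None of the 15 measured genes of B and plasma cells was called (median 0.29).

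Proliferation genes rose in part, with 11 of 28 measured members called higher (median 0.52), none called in untreated aneurysm, where the median was 0.40, and no member with a negative difference. Mcm6, a subunit of the helicase that opens DNA for replication, read 6.89, 6.68, 6.61, 6.82 and 7.09 in normal aorta and 7.5 to 8 (median 7.74) in treated aneurysm. The groups were separate (difference 0.95, adjusted p = 0.00443). Pcna, the sliding clamp of DNA polymerase, rose by 0.92 (adjusted p = 0.0113). Mki67, which marks dividing cells, rose by 2.45 (adjusted p = 0.0189) and lost its call without normal array 2 or 3 (highest adjusted p 0.0619). The count fell to 5, 4 and 4 without normal arrays 1, 2 and 3 and to 5 without treated array 1, 4 or 6, and was 17 without treated array 3. For Mcm6 treated minus untreated aneurysm was 0.50 (95% interval 0.15 to 0.85, unadjusted p = 0.00757 by limma), which did not pass the adjustment over all clusters. None of the 28 was called in that comparison. At an unadjusted p under 0.05 by limma 2 were higher and none lower, against 3.29% and 2.35% of all genes.

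**Figure D2:**
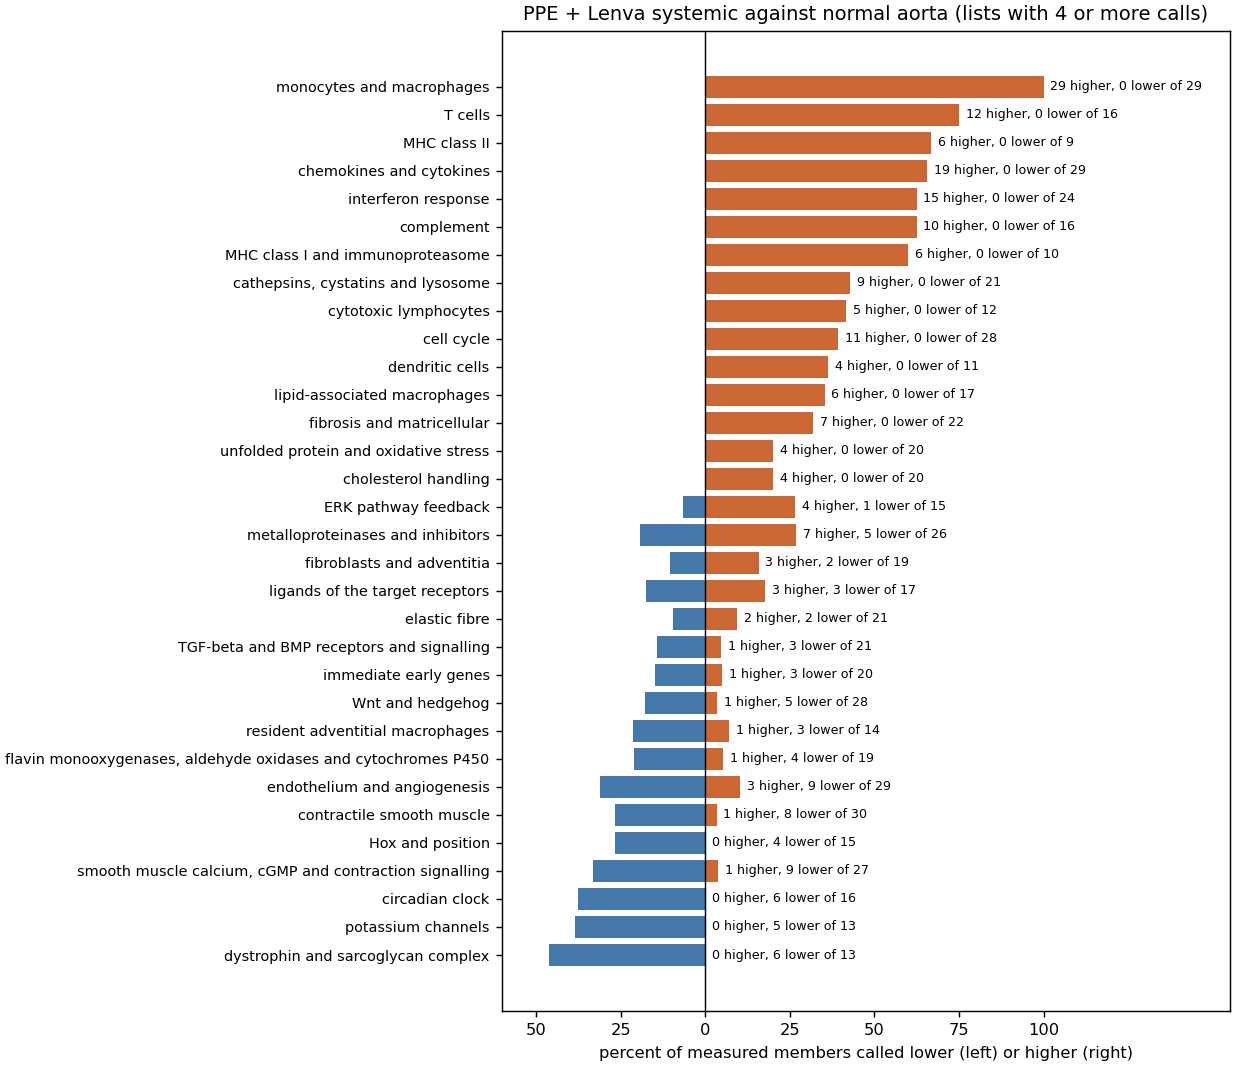
Percent of the measured members of each gene list that were called lower (blue, to the left) or higher (orange, to the right) in PPE + Lenva systemic against normal aorta at an adjusted p under 0.05, for lists with 4 or more calls; the counts stand beside the bars. All 29 monocyte and macrophage genes were higher, and the dystrophin and sarcoglycan complex had the greatest share lower, 6 of 13.

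Among matrix genes, most collagen chains and elastic fibre genes were not called. Of 21 measured collagen chains 1 was higher and 1 lower (median -0.03), and of 21 elastic fibre genes 2 were higher and 2 lower (median -0.01). Untreated aneurysm had 1 collagen chain lower, and 1 elastic fibre gene higher and 1 lower. The shares called in treated aneurysm were 9.52% of collagen chains and 19% of elastic fibre genes, against 7.02% of all genes. Array values existed for 3 collagen and 7 elastic fibre genes, and the others rest on group averages and SDs. The collagen count was 1 with any array but normal array 5 left out, and the elastic fibre count was 2 without normal array 1 and 1 without normal array 2 or 3 or treated array 6. Col1a1 and Col3a1, chains of the main fibrillar collagens, differed by -0.16 and -0.60, Eln, elastin itself, by -0.40, and Lox, the enzyme that crosslinks both, by 0.14, and none was called. Ltbp2, which binds fibrillin fibres, read 6.99, 6.11, 5.73, 7.91 and 8.75 in normal aorta and 8.9 to 10.38 (median 9.47) in treated aneurysm. It was higher in all treated arrays (difference 2.52, adjusted p = 0.012). Mfap4, a glycoprotein of elastic fibres, fell by 1.92 (adjusted p = 0.0265) and lost its call without normal arrays 1, 2 or 3 or treated array 6 (highest adjusted p 0.0805).

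Proteases and their inhibitors moved in both directions, with 7 of 26 measured members higher and 5 lower. Mmp12, the elastase of macrophages, read 7.08, 5.3, 4.92, 6.63 and 7.91 in normal aorta and 8.8 to 13.28 (median 9.65) in treated aneurysm. Timp1, an inhibitor of metalloproteinases, read 7.06, 5.67, 5.89, 8.19 and 7.19 in normal aorta and 8.87 to 12.22 (median 10.18) in treated aneurysm. For both genes each treated array was above each normal array (Mmp12 3.98, adjusted p = 0.00292, Timp1 3.70, adjusted p = 0.00869). Timp1 missed the threshold in untreated aneurysm (2.70, adjusted p = 0.0614). A further inhibitor, Timp4, fell by 1.22 (adjusted p = 0.009), and Plau, the urokinase plasminogen activator, rose by 1.58. The count was 7 without normal array 1 or treated array 6 6 without normal array 2 or 3, and 9 without normal arrays 4 and 5. Of 22 fibrosis and matricellular genes 7 rose (4 and 3 without normal arrays 2 and 3), among them Lgals3, the macrophage lectin galectin-3 (difference 0.95, adjusted p = 0.00202).

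Of 14 measured proteoglycan genes 3 fell and none rose, while 8 of the differences were positive and 4 negative (median 0.07). Untreated aneurysm had 2 lower and 1 higher than normal aorta. Omd, osteomodulin, a small leucine-rich proteoglycan, read 10.65, 11.12, 11.34, 11.43 and 10.23 in normal aorta and 7.88 to 9.16 (median 9.1) in treated aneurysm. No treated array reached the lowest normal array, and the difference was -2.30 ± 0.27 (SE, adjusted p = 0.000173). Untreated aneurysms read 8.48 to 9.14. Aspn, asporin, which binds collagen and TGF-beta, fell by 1.91 (adjusted p = 0.00136).

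Members of the contractile smooth muscle list with array values were averaged in each array. The group median was 10.97 in treated aneurysm, between 12.20 in normal aorta and 10.50 in untreated aneurysm. Treated arrays overlapped both other groups. Of 30 measured members 8 fell and 1 rose (median -0.89), whereas 18 fell in untreated aneurysm (median -1.24). Fewer calls in one comparison than in the other is not a test of the difference. None of the 30 was called between treated and untreated aneurysm. At an unadjusted p under 0.05 by limma, 9 were higher in treated aneurysm and none lower, against 3.29% and 2.35% of all genes. Pgm5, a protein of the adhesion plaques of muscle, read 10.82, 11.34, 11.2, 10.34 and 9.33 in normal aorta and 8 to 9.67 (median 9.07) in treated aneurysm. Only treated arrays 2 and 5, at 9.35 and 9.67, exceeded the lowest normal array (difference -1.69, adjusted p = 0.00481). Ppp1r12a, the regulatory subunit of myosin phosphatase, fell by 1.39 (adjusted p = 0.00797).

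Tpm2, the beta tropomyosin of the thin filament, read 12.08, 11.56, 11.83, 10.15 and 9.82 in normal aorta and 8.67 to 10.56 (median 9.59) in treated aneurysm, and fell by 1.48 (adjusted p = 0.0252). Synpo2, an actin-bundling protein of muscle, fell by 1.85 (adjusted p = 0.0263). Both calls were lost without normal arrays 1, 2 or 3 or treated array 6, that of Tpm2 also without treated array 1 and that of Synpo2 also without treated array 4 (highest adjusted p 0.0803 and 0.0842). Cnn2, a calponin found in many cell types including macrophages, was the member that rose (difference 0.75, adjusted p = 0.0421), and it kept its call in 3 of the 12 fits with an array left out (highest adjusted p 0.102).

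For the genes that define contractile muscle the groups overlapped. Myh11 read 17.42, 17.19, 17.48, 15.51 and 15.26 in normal aorta and 12.96 to 16.23 (median 14.84) in treated aneurysm. Treated arrays 2, 3 and 5 lay among normal arrays 4 and 5 or above them, and the difference, -1.76 (95% interval -2.92 to -0.60), was not called over all clusters (adjusted p = 0.0686 by limma). Tested alone, over the 12 arrays, the two-sided exact permutation p was 0.0316. Without normal arrays 4 and 5 the difference was -2.55 (adjusted p = 0.0173 by limma), and the gene was also called without treated array 2, treated array 5 or normal array 5. Cnn1, the calponin of smooth muscle, differed by -1.60 (adjusted p = 0.0794, exact permutation p = 0.0391), and was called without treated array 5 or normal array 5 and, at a difference of -2.40, without normal arrays 4 and 5 (adjusted p = 0.0138). Itga8, the integrin alpha chain of contractile muscle, differed by -1.71 (adjusted p = 0.079, exact permutation p = 0.0366), and was called without treated array 2. Myocd, the coactivator that drives the contractile program, differed by -0.72 (adjusted p = 0.204, exact permutation p = 0.106). The actin-binding protein gene Tagln differed by -0.32 and was not called (adjusted p = 0.143 by limma, exact permutation p = 0.0278). The exact test was run on 9 genes, and after Benjamini-Hochberg adjustment over these its p was 0.044 for Myh11, Cnn1, Itga8 and Tagln, 0.106 for Myocd, 0.00759 for Ccl2, Ccl12 and Cd34, and 0.00853 for Pecam1. All 9 are among the clusters with array values, which appear to have been selected by a test across the 3 groups. The exact p-values, adjusted or not, can therefore be too small and do not replace the test over all clusters.

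The contractile count depended on single arrays in both directions. It was 14 without normal array 5 and 17 without that array and normal array 4. It was 4, 3 and 2 without normal arrays 1, 2 and 3, and 4, 4 and 3 without treated arrays 1, 4 and 6. Averaged over the 23 contractile genes with array values, the 7 treated aneurysms ran from 10.10 to 11.80 and the 5 normal aortas from 11.13 to 12.63, and treated arrays 2, 3 and 5 lay above the lowest normal array. The same arrays had macrophage levels, averaged over the 29 genes of that list, of 9.49 to 11.76 in the treated and 6.37 to 9.12 in the normal group. Among treated aneurysms the lowest contractile level, 10.10 in replicate 1, went with the highest macrophage level, 11.76, and replicates 4 and 6 (10.67 and 10.66) had macrophage levels of 11.55. Replicates 2 and 3 had the lowest macrophage levels, 9.71 and 9.49, at contractile levels of 11.62 and 11.27. Replicate 5 had the highest contractile level, 11.80, without the lowest macrophage level. Untreated aneurysms had contractile levels of 10.16 to 10.59. The part of macrophage content in the contractile differences was not tested.

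**Figure D3:**
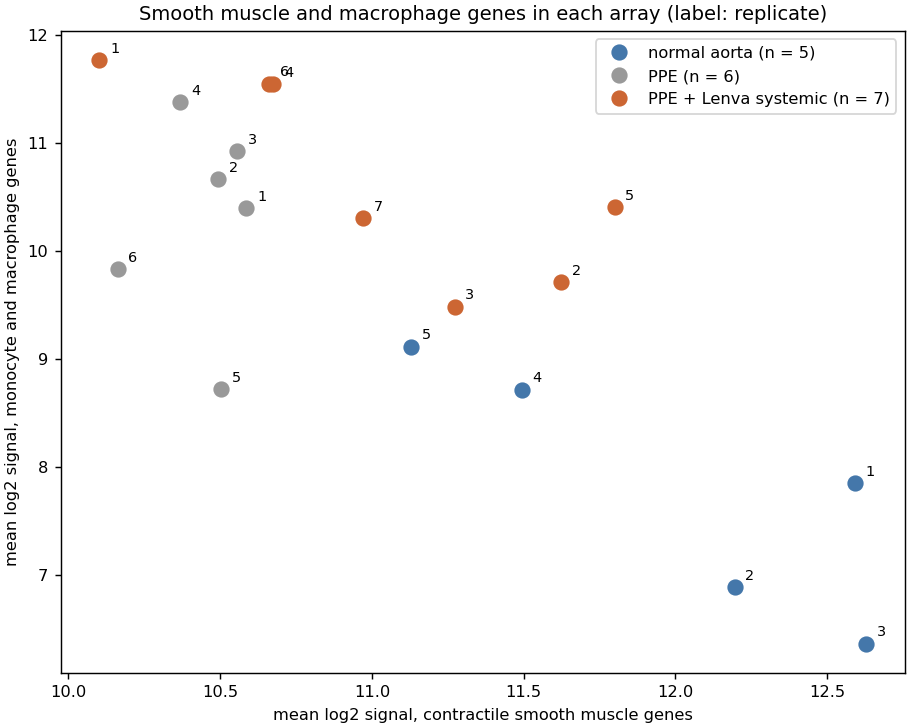
Mean log2 signal of 29 monocyte and macrophage genes (vertical axis) against that of 23 contractile smooth muscle genes (horizontal axis) in each of the 18 arrays, coloured by group and labelled by replicate. Treated array 1 has the highest macrophage level, 11.76, and the lowest contractile level, 10.10, while normal arrays 4 and 5 are the normal arrays closest to the aneurysm arrays.

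Serum response factor and its partner myocardin act on contractile genes through the CArG box. Only the strict box was searched, CC, then A or T alone, then GG, 10 bases in all. It was found within 250 bases upstream of 5 of the 24 contractile genes with a promoter sequence, against 439 of 27025 symbols (1.62%). Boxes that depart from this pattern or lie elsewhere were not searched, so a gene without a match is not shown to lack one. The 5 were Cnn2, Ldb3, Myl6, Myl9 and Vcl, and 2 of these were called, in opposite directions. Their promoters are shown for that reason, from RefSeq in GRCm38.p6, 5′ to 3′ on the strand of the gene and with the box in capitals.
Ldb3 (chr14:34588682-34588776, minus strand): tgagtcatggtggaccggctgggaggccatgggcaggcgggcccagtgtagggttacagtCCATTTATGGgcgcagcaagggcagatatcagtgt
Cnn2 (chr10:79988484-79988599, plus strand): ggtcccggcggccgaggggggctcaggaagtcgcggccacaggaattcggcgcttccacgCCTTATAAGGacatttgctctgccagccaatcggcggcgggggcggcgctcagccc

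Ldb3, a protein of the sites where thin filaments are anchored, fell by 0.61 (adjusted p = 0.0374) and lost its call without normal arrays 1, 2 or 3 or treated arrays 1, 4, 6 or 7 (highest adjusted p 0.112). Cnn2 was the member that rose.

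Calcium and cGMP signals set the tone of the muscle. Of 27 measured members of calcium, cGMP and contraction signalling 9 fell and 1 rose (median -0.56), and 15 fell in untreated aneurysm (median -0.72). The count was 6 without normal array 2 or 3. Cacna1c, the pore of the L-type calcium channel, read 8.32, 7.9, 8.26, 7.54 and 7.18 in normal aorta and 6.15 to 6.93 (median 6.6) in treated aneurysm. Plcb4, a phospholipase C downstream of contractile receptors, read 11.56, 11.66, 11.82, 11.16 and 10.34 in normal aorta and 7.99 to 9.95 (median 9.43) in treated aneurysm. In both genes all treated arrays lay below all normal arrays (Cacna1c -1.24, adjusted p = 0.000651, Plcb4 -2.15, adjusted p = 0.00192). Htr2a, the serotonin receptor of vascular muscle, fell by 1.17 (adjusted p = 0.00117).

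Potassium channels relax the muscle by drawing its membrane voltage down. Of 13 measured genes 5 fell and none rose (median -0.59), none had a positive difference, and 8 were called without normal arrays 4 and 5. Untreated aneurysm had 6 lower than normal aorta (median -0.66). Abcc9, the regulatory subunit of the vascular ATP-sensitive channel, read 13.96, 13.03, 13.51, 12.25 and 11.39 in normal aorta and 9.06 to 11.6 (median 10.81) in treated aneurysm, overlapping at normal array 5 (difference -2.10, adjusted p = 0.014). Kcnma1, the large-conductance calcium-activated channel, fell by 1.32 (adjusted p = 0.0123), and Kcnab1, an auxiliary subunit, by 1.52 (adjusted p = 0.0066).

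The dystrophin complex, which ties the muscle cytoskeleton to laminin outside the cell, had 6 of 13 measured members lower and none higher (median -0.74). Untreated aneurysm had 7 lower than normal aorta (median -0.83). Dmd, dystrophin, read 13.14, 12.59, 13.4, 12.73 and 12.3 in normal aorta and 8.91 to 11.92 (median 10.29) in treated aneurysm. Lama2, the laminin chain that the complex grips, read 10.56, 9.78, 10.49, 9.61 and 8.85 in normal aorta and 6.33 to 8.19 (median 7.7) in treated aneurysm. For both the groups were fully separate (Dmd -2.52, adjusted p = 0.00343, Lama2 -2.27, adjusted p = 0.00134). Untreated aneurysms read 8.76 to 10.15 for Dmd and 7.41 to 8.61 for Lama2.

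Of 29 measured endothelial and angiogenesis genes 9 fell, 3 rose and 17 were not called (median -0.27), and 16 were called without normal arrays 4 and 5. Untreated aneurysm had 4 lower and 2 higher than normal aorta (median -0.31). Vwf, von Willebrand factor, read 9.29, 11.64, 9.87, 9.81 and 8.55 in normal aorta and 6.35 to 8.39 (median 7.92) in treated aneurysm, and Tek, the angiopoietin receptor, 10.49, 12.12, 9.69, 10.33 and 9.26 against 7.13 to 9.05 (median 8.22). Neither overlapped (Vwf -2.08, adjusted p = 0.00869, Tek -2.13, adjusted p = 0.0061). Untreated aneurysms read 6.99 to 8.19 for Vwf and 8.09 to 9.34 for Tek. Cd34, a sialomucin of endothelium and adventitial progenitors, fell by 1.24 (adjusted p = 0.0128, exact permutation p = 0.00253), and Pecam1, the junction protein CD31, by 1.67 (adjusted p = 0.0187, exact permutation p = 0.00379). The limma call for Pecam1 was lost without normal array 2 (adjusted p = 0.0503).

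The 3 that rose were Vcam1, Angpt2 and Sele. Vcam1, the adhesion molecule that captures leukocytes and that smooth muscle can also make, read 10, 9.78, 7.86, 10.81 and 10.89 in normal aorta and 12.04 to 13.43 (median 12.73) in treated aneurysm. Angpt2, the angiopoietin that loosens vessels, read 8.8, 8.16, 8.23, 8.68 and 9.29 in normal aorta and 9.44 to 11.68 (median 10.24) in treated aneurysm. Both were higher in every treated array than in any normal array (Vcam1 2.99, adjusted p = 0.00299, Angpt2 1.65, adjusted p = 0.00915). Sele, E-selectin, rose by 0.58 (adjusted p = 0.00148).

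Of the receptors that lenvatinib inhibits, 9 had a cluster of their own and 1 was called, against 7.02% of all genes. Kit, the receptor for stem cell factor on mast cells, read 7.67, 7.49, 7.95, 6.78 and 6.66 in normal aorta and 6.08 to 6.69 (median 6.38) in treated aneurysm. Treated arrays 5 and 7 touched or passed the lowest normal array (difference -0.91, adjusted p = 0.00759), and in untreated aneurysm Kit fell by the like amount of 0.92. Kdr, the main VEGF receptor of endothelium, differed from normal by -0.24 (adjusted p = 0.714), and Flt1, the high-affinity VEGF receptor, by -0.19 (adjusted p = 0.573). Kdr was lower in treated than in untreated aneurysm by 0.57 (95% interval of the difference -1.08 to -0.06, unadjusted p = 0.0299), which did not pass the adjustment. For Kdr and Flt1 the files gave group averages and SDs only.

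Of 17 measured ligands of these receptors 3 rose and 3 fell (3 calls in all without normal array 3). Kitl, stem cell factor, fell by 1.18 (adjusted p = 0.00316), and Vegfc, the lymphatic growth factor, by 0.43 (adjusted p = 0.00924). Pdgfb, a mitogen for muscle cells, rose by 0.54 (adjusted p = 0.0019). Vegfa was not called (difference -0.28). Feedback genes that report activity of the ERK kinases, which lie downstream of these receptors, included 4 of 15 measured that rose and 1 that fell (3 calls without normal array 1, 2 or 3 or treated array 1). Dusp6, the phosphatase that switches ERK off, read 7.75, 7.32, 7.18, 7.84 and 7.87 in normal aorta and 8.14 to 9.32 (median 8.5) in treated aneurysm. No array overlapped (difference 1.02, adjusted p = 0.00694), and the difference in untreated aneurysm was 1.10.

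Mast cell genes included 2 of 10 measured that fell, Cpa3 and Kit, and 9 of the 10 differences were negative (median -0.35). Cpa3, a carboxypeptidase stored in mast cell granules, read 11.33, 11.56, 11.15, 11.28 and 10.28 in normal aorta, 9.8 to 11.37 (median 10.51) in untreated aneurysm and 6.92 to 10.42 (median 9.03) in treated aneurysm. Treated array 6, at 10.42, was the only treated array above the lowest normal array, and the difference was -2.10 (adjusted p = 0.0152). Untreated aneurysm differed from normal by -0.47 (adjusted p = 0.708). Treated minus untreated aneurysm was -1.63 (95% interval -2.58 to -0.68, unadjusted p = 0.00211). The granule proteases Mcpt4 and Tpsb2 differed from normal aorta by -0.99 and -0.80 (adjusted p = 0.186 and 0.0591) and from untreated aneurysm by -1.23 and -0.74 (unadjusted p = 0.00691 and 0.00464). None of the 10 passed the adjustment against untreated aneurysm, where 5 were lower at an unadjusted p under 0.05, against 2.35% of all genes.

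**Figure D4:**
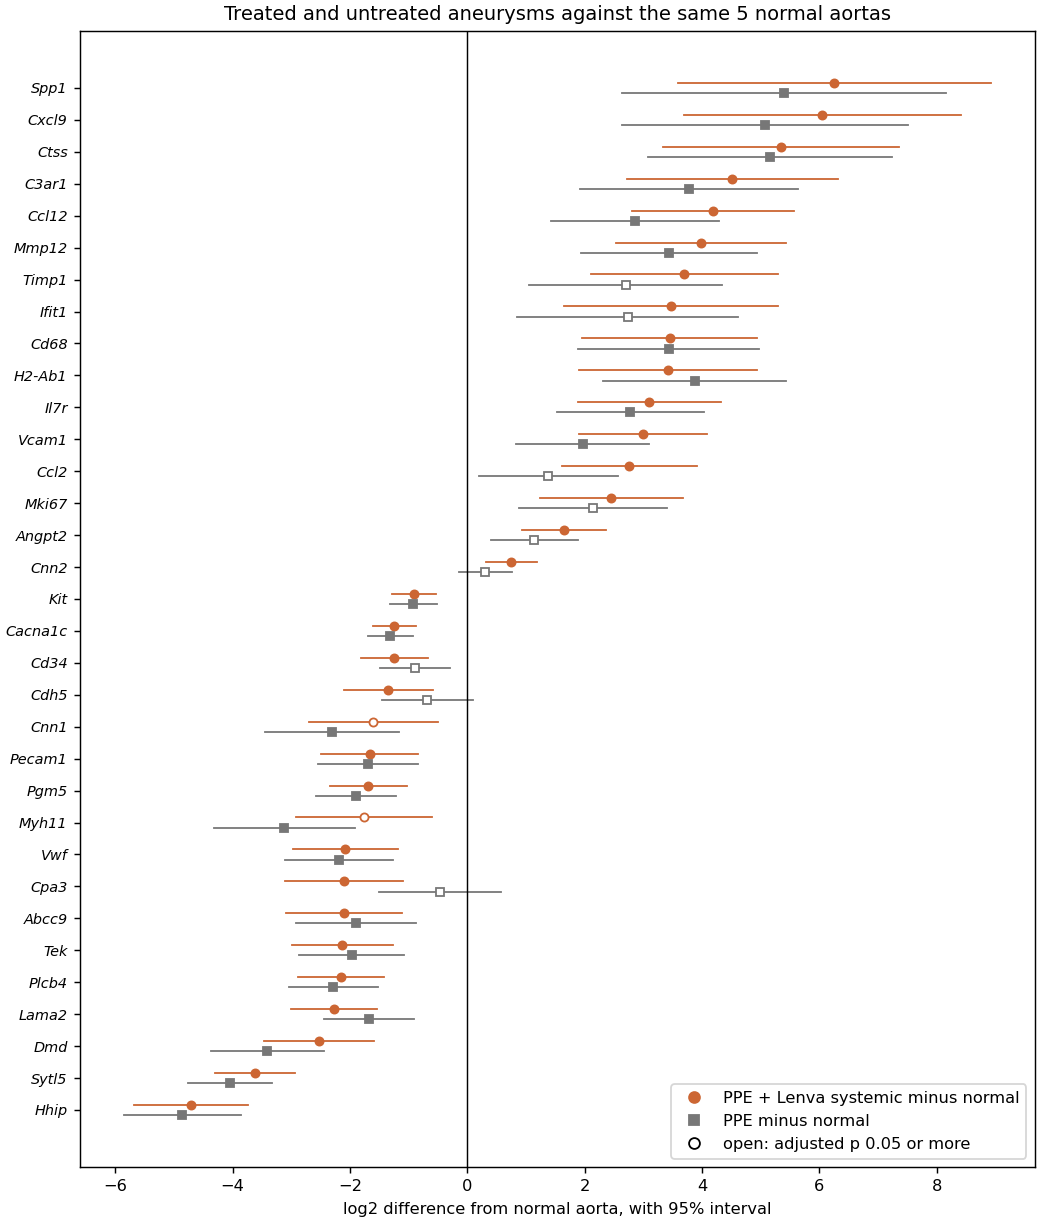
Log2 difference from normal aorta (horizontal axis) with its 95% interval for 33 genes, in PPE + Lenva systemic (orange circles, 7 arrays) and in PPE (grey squares, 6 arrays), both against the same 5 normal aortas; open symbols mark an adjusted p of 0.05 or more. Spp1 reaches 6.25 and Hhip -4.71 in treated aneurysm, Myh11 and Cnn1 are open in treated but filled in untreated aneurysm, and Cpa3 is filled in treated aneurysm alone.

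The strongest statistical separations were falls. Slc4a10, a sodium and bicarbonate transporter known mainly from neurons, at chr2:62046462-62326743 on the plus strand in mm10, had the smallest p of all named genes. It read 7.21, 6.52, 6.76, 6.23 and 6.61 in normal aorta and 4.44 to 4.9 (median 4.73) in treated aneurysm. The gap between the groups exceeded the range within either, and the difference in signal was -1.94 ± 0.13 (SE, adjusted p = 5.92e-07). Untreated aneurysm showed a difference of -1.85. Tet1, which oxidises methylated cytosine, fell by 1.15 (adjusted p = 1.5e-05), and Angptl7, a secreted angiopoietin-like protein, by 1.16 (adjusted p = 1.45e-05), with all treated arrays below all normal arrays in both. The treated signals of these genes, 4.44 to 5.08, are at the dim end of the scale, where the size of a fall in RNA cannot be read from the signal.

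Hhip had the largest fall. It encodes a membrane protein that captures hedgehog ligands, and its cluster lies at chr8:79965851-80058008 on the minus strand in mm10. It read 11.76, 10.33, 11.53, 9.67 and 9.04 in normal aorta and 4.8 to 6.97 (median 5.39) in treated aneurysm. The difference in signal was -4.71 ± 0.46 (SE, adjusted p = 2.96e-05), with no overlap. The treated signals are dim, so this is not a measured fold of the RNA. Untreated aneurysms read 5.09 to 6.34. Of 28 measured Wnt and hedgehog genes 5 fell and 1 rose, and Gli1, the hedgehog-responsive transcription factor, fell by 0.38 (adjusted p = 0.00386). Fzd4, a Wnt and norrin receptor, fell by 2.06 (adjusted p = 0.00249). Sytl5, a Rab-binding protein of vesicle traffic, read 10.25, 9.73, 10.61, 9.49 and 9.91 in normal aorta and 5.15 to 7.44 (median 6.39) in treated aneurysm (difference -3.61, adjusted p = 1.47e-05).

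Flavin monooxygenases oxidise drugs and small amines. Fmo1, a member of this family, read 13.24, 14.21, 13.73, 13.7 and 12.38 in normal aorta and 8.84 to 11.9 (median 11.3) in treated aneurysm. The groups did not overlap (difference -2.72, adjusted p = 0.0139 by limma).

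Of the rises, that of Pdia6 had the smallest p among the named genes. Pdia6, a disulfide isomerase of the endoplasmic reticulum, read 10.57, 10.1, 10.24, 10.45 and 10.44 in normal aorta and 11.27 to 11.78 (median 11.63) in treated aneurysm. Every treated array was above every normal array, and the difference was 1.20 ± 0.12 (SE, adjusted p = 2.83e-05). Of 20 measured genes for unfolded protein and oxidative stress, Hspa5, Gpx1, Txnrd1 and Prdx1 rose and none fell, with 10 differences positive and 10 negative (median 0.00), and 2 were called without normal array 2 or 3, without treated array 1, 4 or 6, or without normal arrays 4 and 5 together. Hspa5, the chaperone BiP, rose by 0.98 (adjusted p = 0.00231), and the other 3 act on peroxides or on thioredoxin. Alcam, an adhesion molecule of activated leukocytes and endothelium, read 7.54, 6.95, 7.22, 7.76 and 7.94 in normal aorta and 8.62 to 9.62 (median 8.89) in treated aneurysm, again without overlap (difference 1.53, adjusted p = 0.000217).

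Clock genes fell in part, 6 of 16 measured and none higher (median -0.44), while none was called in untreated aneurysm, where the median was -0.44 as well. Tef, a clock-controlled transcription factor, fell by 0.71 (adjusted p = 0.0138). Per3, a repressor in the clock loop, read 7.12, 6.92, 6.45, 6.33 and 6.11 in normal aorta and 5.51 to 6.19 (median 5.92) in treated aneurysm, with treated array 7 the only overlap (difference -0.72, adjusted p = 0.0151, and 0.0501 without normal array 2). The time of day of sampling is not in the labels. The count was 2 without normal arrays 1, 2 or 3 or treated arrays 1 or 6, and 3 without treated array 4. Of 15 Hox and positional genes 4 fell, among them Hoxa5, a homeobox gene of body position (1.99-fold lower, adjusted p = 0.000757), and the count was 2 without normal arrays 1, 2 or 3 or treated array 1 and 1 without treated array 6.

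**Figure D5:**
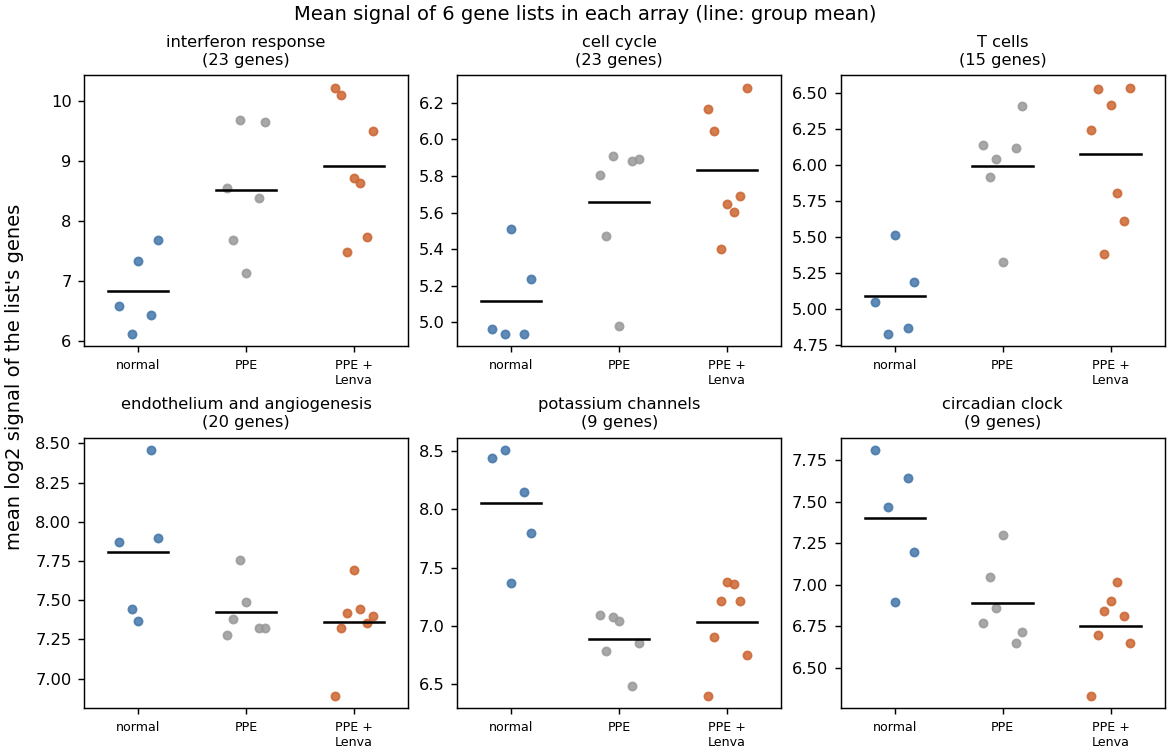
Mean log2 signal (vertical axis, a separate scale in each panel) over the genes of 6 lists in each array, with normal aorta in blue, PPE in grey and PPE + Lenva systemic in orange; points are arrays and lines are group means. For potassium channels the treated arrays reach 7.38 and the lowest normal array is at 7.37, and for interferon genes the treated arrays run from 7.50 to 10.2 and the normal arrays from 6.13 to 7.69.

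MicroRNA genes were measured through clusters of their host transcripts, which do not report the mature strand. Of 25 measured, 1 rose and 2 fell, against 7.02% of all genes called. Those that fell were Mir145a (difference -1.79) and Mir100, and whether Mir145a kept its call without single arrays is not given here. In all, 1 was called without normal array 1 or treated array 4 or 6. The mature strands of 3 are shown from RefSeq (GRCm38.p6), 5′ to 3′ with the seed, bases 2 to 8, in capitals. The gene of miR-155-5p rose. Those of miR-100-5p and miR-99a-5p share a seed, and only the host cluster of the first was called.
miR-100-5p (chr9:41531437-41531458, plus strand): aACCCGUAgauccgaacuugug
miR-155-5p (chr16:84714143-84714165, plus strand): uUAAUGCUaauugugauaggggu
miR-99a-5p (chr16:77598940-77598961, plus strand): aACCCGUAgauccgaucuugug

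Mir155, which is induced in activated leukocytes, rose by 1.24 (adjusted p = 0.0275). It read 4.65, 4.55, 5.11, 4.92 and 4.63 in normal aorta and 5.12 to 7.3 (median 6.01) in treated aneurysm, and its call was lost without normal arrays 1, 2 or 5 or treated arrays 4 or 6 (highest adjusted p 0.0698). The cluster named for Mir100 spans chr9:41405374-41532087 on the plus strand, far more than the microRNA itself. It read 8.37, 7.96, 7.92, 8.62 and 7.62 in normal aorta and 6.71 to 7.82 (median 6.97) in treated aneurysm, overlapping at treated array 2 (difference -0.96, adjusted p = 0.0146). Mir99a differed by -0.52 (adjusted p = 0.12), in the same direction as Mir100, and whether they differ from each other was not tested.

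Between treated and untreated aneurysm no gene passed the adjustment (0 of 36232, 0%; smallest adjusted p 0.185 by limma), and 2046 genes (5.65%) had an unadjusted p under 0.05. For 3 of the genes called against normal aorta that had small unadjusted p in this second comparison the values are given. Anxa2, a membrane-binding protein that gathers plasmin at cell surfaces, read 11.41, 11.17, 10.84, 11.46 and 10.95 in normal aorta, 11.29 to 11.94 (median 11.68) in untreated and 11.78 to 12.54 (median 12.16) in treated aneurysm. It differed from normal aorta by 1.05 (adjusted p = 0.000661) and from untreated aneurysm by 0.58 (95% interval 0.28 to 0.87, unadjusted p = 0.000677). Svep1, an adhesion protein of the vessel wall matrix, read 8.88, 8.92, 8.91, 8.73 and 8.6 in normal aorta, 8.07 to 9.27 (median 8.64) in untreated and 7.44 to 8.53 (median 8.09) in treated aneurysm. All treated arrays lay below all normal arrays (difference -0.83, adjusted p = 0.0159), and treated minus untreated aneurysm was -0.71 (95% interval -1.09 to -0.33, unadjusted p = 0.00107). Pwp1, a nucleolar protein of ribosome production, differed by 0.31 from normal aorta (adjusted p = 0.0146) and by 0.29 from untreated aneurysm (unadjusted p = 0.00042).

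Several gene groups showed no call. Hypoxia response genes (15 measured), mesothelium (11), skeletal muscle (12) and neighbouring organs (11) had none, with medians of -0.21 to 0.00, though 1 hypoxia gene was called without treated array 2, 3 or 7 and 1 gene of neighbouring organs without normal array 3 or 5 or without normal arrays 4 and 5. The 17 adipocyte and capillary lipid uptake genes also had none, though 16 of the differences were negative and the median was -1.08, and 16 of 17 genes for fatty acid oxidation and mitochondrial biogenesis were negative with a median of -0.77. Pancreatic enzymes, examined after their values were seen, spread over several log2 units within groups. Ctrb1, a chymotrypsinogen, had averages of 13.74 in normal aorta, 10.14 in untreated and 6.88 in treated aneurysm, with SDs of 5.32, 6.47 and 4.15. None of 10 such genes was called (differences -6.86 to -1.38), and the part of pancreatic tissue in the other results was not tested.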

How the data were processed

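RNA of 18 mouse aortas was hybridised to Mouse Transcriptome Arrays, 1 array for each mouse (RNA integrity 5.7 to 9.8 per the labels). The deposited values are log2 signals that the authors summarised and normalised with SST-RMA in the Transcriptome Analysis Console (version 4.0.1.36, mm10), with an upper limit of 19.93. The authors deposited group averages (Tukey biweights) and SDs for 65956 clusters, and array values for 11121 clusters, which appear to have been selected by a test across the 3 groups (92.0% have a p under 0.05 in an ordinary F test). The authors' own columns of fold changes and p-values were not used. The number of arrays limits the precision.

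Array values were used where given, and averages and SDs for the other clusters, of which 113 were called. A linear model with the 3 groups was fitted with limma (version 3.58.1, R 4.3.3) with variances moderated over the whole set. The Benjamini-Hochberg adjustment ran over 65956 clusters, with calls at 0.05. A gene was its brightest cluster among the 36571 that name exactly 1 symbol; 3590 name several and 25795 none. For 9 genes an exact two-sided permutation test over the 12 arrays was added; their clusters are in that selected table. The labels do not say that replicates came from separate cohorts, so p-values measure only the spread between these mice.

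The members, the gene lists and the tests were chosen with earlier results of these data known. Named genes were the 15 largest rises and 15 largest falls among called genes, the 5 with the smallest p in each direction, up to 6 members of each list by p, genes that the study discusses, and the 5 called genes in each direction with the smallest p against PPE; predicted and immunoglobulin genes were left out, and a few further list members and defining markers were named after their values were seen. Promoters and mature microRNAs came from RefSeq (GRCm38.p6), searched 250 bases upstream of the start. The fits were tested on simulated data. Alternatives were other normalisations, filters, variance models, thresholds, a replicate block and leaving out arrays; leaving out normal arrays 4 and 5 together and calling no cluster outside the array table were added after seeing the data. Some items are not reported here.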

Additional observations from a re-analysis of the deposited data

Results flagged for a closer look

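Treated array 1 was flagged as set apart below the other 6 treated arrays in 3 genes. Tagln, a smooth muscle actin-binding protein, read 16.89 there and 17.38 in the next lowest treated array. Vwf read 6.35 against 7.68, and Cd34 read 11.03 against 12.11. The gap to the next array exceeded Dixon's 95% limit in each case. Chance flags about 5% of groups. These 3 were the only flags among the 164 combinations of gene and group tested, which is fewer than chance gives. The same array had the lowest contractile and the highest macrophage level of the treated group, and a link to the flags was not tested.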

How the results depend on the processing

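No called difference of a named gene changed direction under any alternative that was run. Against 1825 clusters higher and 2196 lower, stricter or looser rules gave 335 and 793 at an adjusted p under 0.01, 684 and 572 with a further 2-fold limit, 946 and 736 with an unadjusted p under 0.05 and 2-fold, and 4143 and 4860 when p-values were adjusted over the clusters with array values alone, 92.0% of which have a p under 0.05 in an ordinary F test of the 3 groups. Fewer clusters were lower when only the 12 arrays compared were fitted (1461) and when only clusters with 1 symbol were tested (1107). With 1 array left out, the higher clusters numbered 685 to 2197 and the lower ones 1394 to 2267. With the replicate block the counts were 661 and 1036. Deviations of the 5 same-numbered pairs of treated and normal arrays correlated at -0.364 to 0.303. Of these pairs 3 exceeded 0.1, and 1 of the 5 was highest with its own number. So few pairs cannot settle whether the numbers mark a pairing or a shared batch, and the untreated aneurysm arrays were not compared. The split moved with the scaling, from 45.4% of called clusters higher to 49.7% with quantile normalisation and 51.3% with median-centring.

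Of the 228 called genes among 333 named or shown, 107 lost their call with the replicate block, 87 without normal array 3, 84 without normal array 2 and 55 when only the arrays compared were fitted. The causes were not tested. With 5 normal arrays that spread widely, a difference that was not called is not shown to be absent, and clusters at the upper limit or at the dim end of the scale do not give the size of a fall or rise in RNA.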
